A study of Rattus norvegicus with 4 samples.

Results

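The primitive streak and early mesoderm transcription factors examined here are T, Eomes, Mixl1, Gsc, Lhx1, Mesp1, Hand1, Foxf1, Foxc1 and Twist1. They were taken from the deposited tables by gene symbol, and each of the 10 matched 1 row of the 32753 genes measured. The libraries came from rat embryoid bodies, the aggregates that pluripotent cells form when they begin to differentiate, collected at day 4. Kcnh2-/- cells gave 2 libraries and wild-type (WT) cells gave 2, all from rat embryonic stem cells of the strain labelled DASD. Kcnh2 encodes the voltage-gated potassium channel ERG1, and the comparison asks what its loss changes early in differentiation. Both genotypes spent 2 days in hanging drops with CHIR9902 (0.75 µM), PD0325901 (0.1 µM), an inhibitor of the kinase MEK, and Y27632 (10 µM), an inhibitor of the kinase ROCK. They then had 24 hours on laminin with the first of these compounds and PD0325901, and 1 day in fresh DM medium. The altered part of Kcnh2, the number of clones behind each genotype and the origin of the replicates (separate cultures or not) are not given in the sources used here, so p-values measure the spread between these libraries only, which may be technical.

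In the vertebrate embryo, cells of the epiblast pass through the primitive streak to become mesoderm and endoderm, and Nodal, Wnt, BMP and FGF signals drive this step. The T-box factors T (Brachyury) and Eomes and the homeobox factors Mixl1, Gsc and Lhx1 mark the streak itself, with Gsc and Lhx1 at its anterior end. In the mouse, Mesp1 comes on as nascent mesoderm leaves the streak, and Hand1, Foxf1, Foxc1 and Twist1 mark mesoderm that has begun to take on regional fates.

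Kcnh2 itself was at 0.108 and 0.504 RPKM in Kcnh2-/-, and at 2.61 and 1.45 RPKM in WT (limma adjusted p = 0.980). The Y-linked gene Eif2s3y was at 0.0574 and 0.140 RPKM in Kcnh2-/-, and at 153 and 135 RPKM in WT (limma adjusted p = 0.0163). The other Y-linked genes were alike in pattern: Ddx3 on chromosome Y was at 0.0871 and 0.0102 RPKM in Kcnh2-/- and 60.2 and 42.9 RPKM in WT, and Kdm5d at 0.00873 RPKM and listed at 0 in Kcnh2-/- and at 18.7 and 12.8 RPKM in WT. The groups thus differ by more than the labelled genotype, and this and the loss of Kcnh2 cannot be told apart. Median-of-ratios size factors lay between 0.968 and 1.03. Read depth is unknown.

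Across the 4 libraries Eomes was the only one of the 10 factors at 1 RPKM (reads scaled to the length of the transcript and to the number of mapped reads) or more throughout. Its level was close to even, while T, Gsc and Lhx1 were lower in Kcnh2-/- within each replicate number. The later factors were low or near 0 in most libraries, and the 2 that exceeded 6 RPKM, Foxc1 and Twist1, did so in WT replicate 1 only. Mixl1 and Foxf1 were under 1 RPKM in all 4 libraries, and Mesp1, Hand1 and Foxc1 reached it in WT replicate 1 alone. In bulk RNA, fewer cells of a kind and less RNA per cell cannot be told apart. No factor passed the test between genotypes. Genes that reached 1 RPKM in 2 libraries or more, 12355 in all, were tested with limma on log2(RPKM + 1), with Benjamini-Hochberg adjustment over the whole set. They included T, Eomes, Gsc, Lhx1 and Twist1, of which 0 were at an adjusted p under 0.05 and 0 at an unadjusted p under 0.05. Of all genes tested, 0.113% were called in either direction and 3.38% had an unadjusted p under 0.05. Mixl1, Mesp1, Hand1, Foxf1 and Foxc1 were below that filter and have values only. A p that misses the threshold does not show that the genotypes were alike, and in simulated data this fit called none of the genes changed by as much as T, Gsc or Lhx1 differed here. An exact permutation test of 2 libraries against 2 cannot go below p = 0.333.

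**Figure D1:**
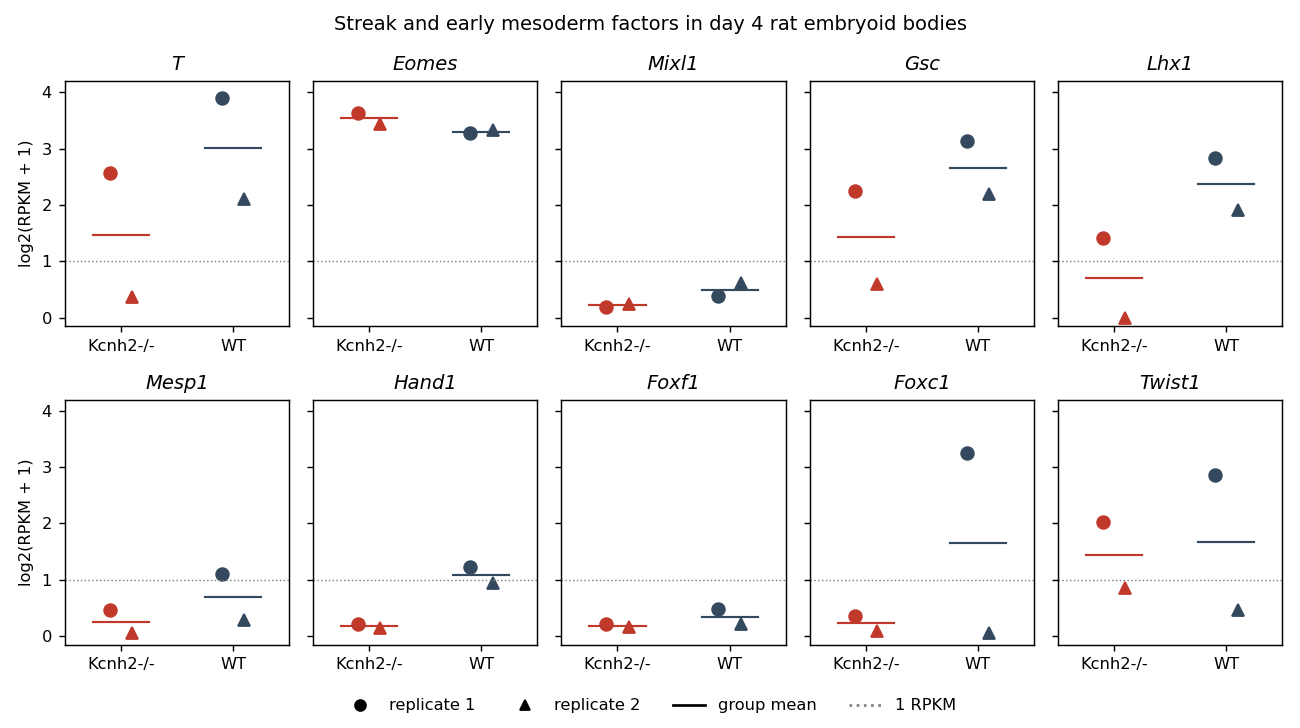
Level of each factor as log2(RPKM + 1) in the Kcnh2-/- and WT libraries, with circles for replicate 1, triangles for replicate 2, a bar for the group mean and a dotted line at 1 RPKM. Eomes is level across the 4 libraries, T, Gsc and Lhx1 are lower in Kcnh2-/- within each replicate number and lower in replicate 2 within each genotype, and Foxc1 is high in WT replicate 1 alone.

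The windows at the starts of 4 of these genes are shown because T and Eomes belong to the same family and differ in pattern, and Gsc and Lhx1 are the other streak factors above 1 RPKM in 3 libraries. They come from RefSeq (assembly GRCr8), run 5′ to 3′ from 250 bases before to 50 bases after the start, and were matched by symbol for 8 of the 10 factors and for T as Tbxt, the current symbol, which lies next to T2 in the files and in RefSeq alike. Foxf1 has none here. Capitals mark CTTTGA (core of the TCF/LEF site), AGGTGT (core of the T-box site), ATCCACA (core of the FOXH1 site), TATAAA or CCAAT, on either strand.
T, chr1:54853534-54853833, minus strand: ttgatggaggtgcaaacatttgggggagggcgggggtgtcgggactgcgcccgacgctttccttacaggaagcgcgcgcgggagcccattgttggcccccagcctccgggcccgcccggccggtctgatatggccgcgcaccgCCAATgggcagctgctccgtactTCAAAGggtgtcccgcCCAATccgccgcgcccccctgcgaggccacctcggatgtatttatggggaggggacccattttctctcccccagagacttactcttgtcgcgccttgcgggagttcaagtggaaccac
Eomes, chr8:127058965-127059264, plus strand: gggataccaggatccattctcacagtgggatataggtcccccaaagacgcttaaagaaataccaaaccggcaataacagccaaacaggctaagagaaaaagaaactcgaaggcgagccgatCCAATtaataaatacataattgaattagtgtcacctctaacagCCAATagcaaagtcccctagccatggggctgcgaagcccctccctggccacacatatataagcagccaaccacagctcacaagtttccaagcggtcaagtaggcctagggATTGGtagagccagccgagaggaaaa
Gsc, chr6:129154826-129155125, minus strand: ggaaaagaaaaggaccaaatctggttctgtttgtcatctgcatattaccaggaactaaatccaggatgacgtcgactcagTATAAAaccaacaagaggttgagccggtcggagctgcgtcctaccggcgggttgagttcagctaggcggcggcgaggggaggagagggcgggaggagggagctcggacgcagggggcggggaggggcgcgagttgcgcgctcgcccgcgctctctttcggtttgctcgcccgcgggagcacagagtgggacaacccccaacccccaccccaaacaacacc
Lhx1, chr10:69901027-69901326, minus strand: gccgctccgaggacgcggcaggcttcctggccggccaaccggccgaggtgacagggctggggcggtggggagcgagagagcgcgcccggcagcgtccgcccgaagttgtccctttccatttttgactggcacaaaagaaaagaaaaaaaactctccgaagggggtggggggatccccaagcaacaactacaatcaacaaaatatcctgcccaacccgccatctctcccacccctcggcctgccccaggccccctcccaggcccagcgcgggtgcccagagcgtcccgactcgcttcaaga
The T window holds 1 CTTTGA match, which starts 84 bases before the gene's start, and a pair of CCAAT matches 107 and 68 bases before it. The Eomes window has 3 CCAAT matches and neither CTTTGA nor AGGTGT. The Gsc window has a TATAAA 170 bases before its start, and the Lhx1 window has none of these motifs. Over the 9 windows, CTTTGA was present in 3 (T, Mixl1 and Hand1), against 16.1% of all 33469 windows of this length. AGGTGT was present in 2 (Mesp1 and Twist1), against 13.6% of all windows, and ATCCACA in 1 (Mixl1), against 3.53%. CANNTG, the E-box read by factors such as Mesp1, Hand1 and Twist1, was present in 3 (T, Gsc and Mesp1), against 72.1%. TATAAA was present in 2 (Gsc and Hand1), against 14.2%, and CCAAT in 6, against 37.5%. A match is a description of the letters in this window and not a binding site.

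T, the founding T-box factor, which posterior mesoderm needs, stood at 4.96 and 0.290 RPKM in Kcnh2-/- replicates 1 and 2, and at 13.9 and 3.30 RPKM in WT replicates 1 and 2. The highest library was WT replicate 1 and the lowest Kcnh2-/- replicate 2, and the groups overlapped, since Kcnh2-/- replicate 1 lay above WT replicate 2. Each SE given here is that of limma, which moderates the variance of a gene by that of all genes tested. The difference in log2(RPKM + 1), Kcnh2-/- minus WT, was -1.53 ± 0.99 (SE, n = 2 each), with a limma adjusted p of 0.980. Within replicate 1 it was -1.33 and within replicate 2 -1.74. It was -0.43 without Kcnh2-/- replicate 2, -0.63 without WT replicate 1, -2.43 without WT replicate 2 and -2.64 without Kcnh2-/- replicate 1. Replicates of 1 genotype lay further apart than the genotypes: replicate 2 minus replicate 1 was -2.21 in Kcnh2-/- and -1.80 in WT on the same scale. T lies at 52887066 to 52894832 on rn6 chromosome 1, and its neighbour T2 was under 0.200 RPKM in every library.

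Eomes, the T-box factor that in the mouse acts upstream of Mesp1 and of definitive endoderm, went the other way in sign. It stood at 11.5 and 9.79 RPKM in Kcnh2-/-, and at 8.70 and 9.05 RPKM in WT (rn6 chromosome 8, 127144902 to 127151493). The groups did not overlap and the Kcnh2-/- libraries were the higher ones, by a log2 difference of 0.23 ± 0.28 (SE, n = 2 each, limma adjusted p = 0.980), which was 0.13 without Kcnh2-/- replicate 1. The highest library was 1.32-fold above the lowest, against 48.1-fold for T. Eomes ranked above 70.3% and 67.0% of protein-coding genes in Kcnh2-/- replicates 1 and 2, and above 64.6% and 65.0% in WT replicates 1 and 2. The ratio of Eomes to T, both per length, was 2.31 and 33.8 in Kcnh2-/- replicates 1 and 2, and 0.624 and 2.74 in WT replicates 1 and 2. WT replicate 1 was the only library with more T than Eomes.

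Gsc, a homeobox repressor of the anterior streak and organizer, stood at 3.75 and 0.518 RPKM in Kcnh2-/-, and at 7.80 and 3.55 RPKM in WT (rn6 chromosome 6, 128147180 to 128149220). Kcnh2-/- replicate 2 was the low library, and Kcnh2-/- replicate 1 lay slightly above WT replicate 2, so the groups overlapped. The log2 difference was -1.24 ± 0.70 (SE, n = 2 each, limma adjusted p = 0.980), with -0.89 within replicate 1 and -1.58 within replicate 2. It was -0.41 without Kcnh2-/- replicate 2, -0.76 without WT replicate 1 and -2.06 without Kcnh2-/- replicate 1.

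Lhx1, a LIM homeobox factor that the mouse needs to form the head, stood at 1.67 RPKM in Kcnh2-/- replicate 1 and was listed at 0 in Kcnh2-/- replicate 2, against 6.11 and 2.74 RPKM in WT replicates 1 and 2 (rn6 chromosome 10, 71843990 to 71849293). Both Kcnh2-/- libraries lay below both WT libraries. The log2 difference of -1.66 ± 0.65 (SE, n = 2 each) had the smallest unadjusted p of the factors tested and a limma adjusted p of 0.980. It was -1.41 within replicate 1 and -1.90 within replicate 2, and -0.95 without Kcnh2-/- replicate 2. A 0 in RPKM tables can be a failed estimate or a lack of RNA, and which of these holds for Lhx1 was not tested. Otx2, a gene of the epiblast, was listed at 0 in all 4 libraries, for a reason that was not tested either. The RNA AC096263.1, which lies 0.844 kb from the Lhx1 locus, was likewise highest in WT replicate 1 and lowest in Kcnh2-/- replicate 2, at 3.09 and 0.0852 RPKM in Kcnh2-/- and 10.2 and 1.72 RPKM in WT, but its groups overlapped. It was picked after its values were seen from 22 genes within 60 kb of the factors, of which 8 reached 1 RPKM in some library. Aatf, on the other side of Lhx1, was at 44.9 and 55.5 RPKM in Kcnh2-/- and 36.4 and 33.4 RPKM in WT.

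Mixl1, a paired-type homeobox factor of the streak, was under 1 RPKM in all 4 libraries, at 0.145 and 0.178 RPKM in Kcnh2-/- and 0.298 and 0.530 RPKM in WT (rn6 chromosome 13, 97278257 to 97282299). The groups did not overlap and Kcnh2-/- was lower. Over genes of chromosome 13, the log2 ratio of Kcnh2-/- to WT had a median, relative to all autosomes, of -0.46 in replicate 2 and -0.08 in replicate 1. The part of this shift in the Mixl1 values was not tested. On the chromosomes of the other 9 factors these medians lay between -0.05 and 0.08 in replicate 1 and between 0.02 and 0.13 in replicate 2. Chromosomes 3 and 16, which hold no factor, had medians of -0.40 and -0.48 in replicate 2. Genes read below lie on such chromosomes too, among them Cxcr4 and Lefty1 (chromosome 13), Foxa2 and Actc1 (3) and Tnnc1 (16). The part of the shift in their values was not tested.

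**Figure D2:**
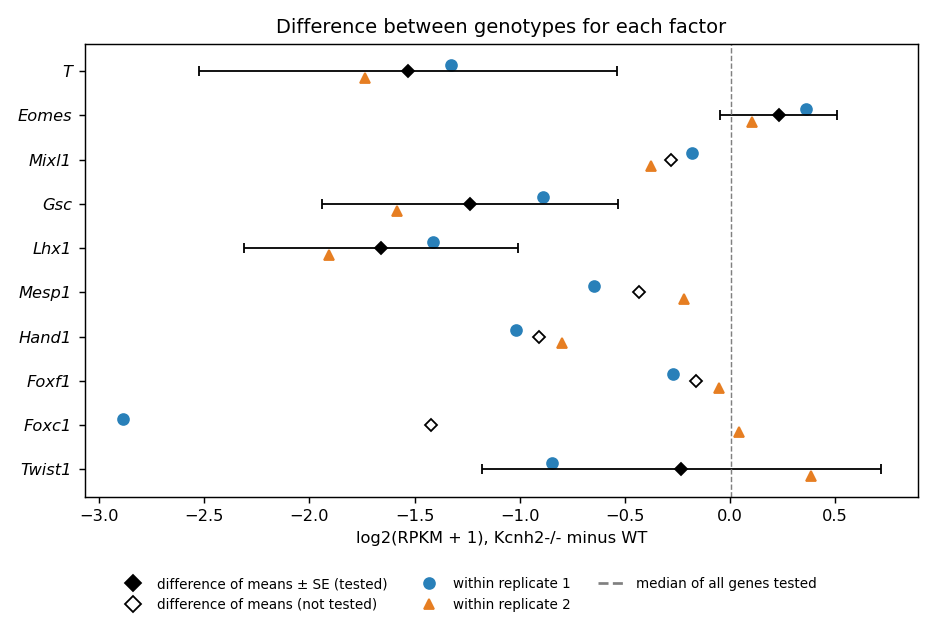
Difference in log2(RPKM + 1), Kcnh2-/- minus WT, for each factor. Black diamonds are differences of group means with the moderated SE of limma, and open diamonds belong to factors below the filter. Circles and triangles give the difference within replicates 1 and 2. T, Gsc and Lhx1 lie between -1.24 and -1.66, Eomes at 0.23, and Foxc1 and Twist1 have opposite signs in replicates 1 and 2.

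Of the factors of later mesoderm, Mesp1 and Foxf1 were barely expressed. Mesp1, which marks the earliest cardiac progenitors in the mouse, was at 0.372 and 0.0415 RPKM in Kcnh2-/- and at 1.15 and 0.212 RPKM in WT (rn6 chromosome 1, 141532389 to 141533908). WT replicate 1 was the only library above 1 RPKM, and the groups overlapped. Its neighbour and paralog Mesp2, which acts in somite formation, was at 0.0809 and 0.105 RPKM in Kcnh2-/- and 0.670 and 0.268 RPKM in WT. Foxf1, a forkhead factor of lateral plate and extraembryonic mesoderm, was under 1 RPKM throughout, at 0.158 and 0.113 RPKM in Kcnh2-/- and 0.396 and 0.154 RPKM in WT (rn6 chromosome 19, 53012331 to 53016086). Kcnh2-/- replicate 1 and WT replicate 2 were nearly level, so the groups overlapped. AABR07044018.2, which shares the locus of Foxf1, was listed at 0 throughout. Fendrr, the noncoding RNA beside Foxf1, was at 0.0806 RPKM and listed at 0 in Kcnh2-/-, and at 0.154 RPKM and listed at 0 in WT.

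Hand1, a basic helix-loop-helix factor of extraembryonic and lateral mesoderm and of the heart, was the low factor with the clearest separation by genotype. It stood at 0.155 and 0.107 RPKM in Kcnh2-/-, and at 1.34 and 0.923 RPKM in WT (rn6 chromosome 10, 43250744 to 43253296). The groups did not overlap, and the mean in WT was 8.62-fold that in Kcnh2-/-. On the log2(RPKM + 1) scale, which shrinks changes at such levels, the difference was -0.91, with -1.02 within replicate 1 and -0.80 within replicate 2. With no filter on low values, Hand1 had an unadjusted limma p of 0.00701 and an adjusted p of 0.948 over 20201 genes. It was the only 1 of the 10 factors at an unadjusted p under 0.05 in that run, and the share of all genes at such a p was not counted.

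Foxc1 and Twist1 were highest in WT replicate 1 and lowest in WT replicate 2. Foxc1, a forkhead factor of paraxial mesoderm, stood at 0.283 and 0.0661 RPKM in Kcnh2-/-, and at 8.50 and 0.0340 RPKM in WT (rn6 chromosome 17, 33947505 to 33951484). The WT replicates were 249.7-fold apart, and the log2 difference of -1.42 between genotypes became 0.18 without WT replicate 1. Twist1, a basic helix-loop-helix factor of mesenchyme, stood at 3.06 and 0.803 RPKM in Kcnh2-/-, and at 6.30 and 0.380 RPKM in WT (rn6 chromosome 6, 53401108 to 53403214). Its log2 difference was -0.23 ± 0.95 (SE, n = 2 each, limma adjusted p = 0.986), with -0.85 within replicate 1 and 0.39 within replicate 2. For both genes, replicate 1 was higher than replicate 2 in either genotype.

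Ordered by their mean over the 4 libraries, the factors ran Eomes, T, Gsc, Twist1, Lhx1, Foxc1, Hand1, Mesp1, Mixl1 and Foxf1, from 9.75 to 0.205 RPKM. Eomes, T and Gsc were above the last 4 in every library, but each pair of neighbours in the order changed places in at least 1 library. In Kcnh2-/- replicate 1, 5 factors reached 1 RPKM, and in Kcnh2-/- replicate 2 only Eomes did. In WT replicate 1, 8 reached it, all but Mixl1 and Foxf1, and in WT replicate 2, 4 did. Their summed level was 26.0 and 11.9 RPKM in Kcnh2-/- replicates 1 and 2, and 54.5 and 20.9 RPKM in WT replicates 1 and 2. Eomes made up 44.0% and 82.2% of that sum in Kcnh2-/-, and 16.0% and 43.3% in WT.

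**Figure D3:**
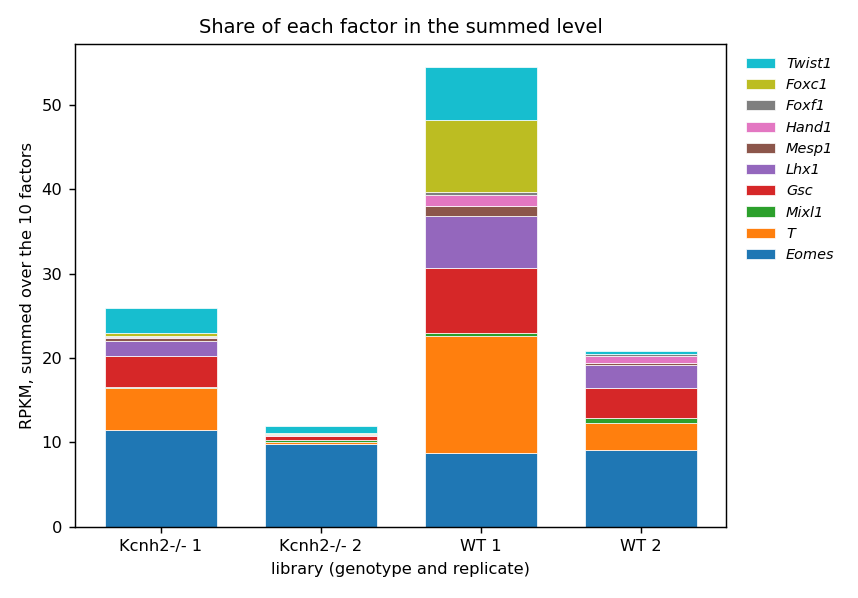
RPKM of the 10 factors stacked by library, with Eomes at the base. The Eomes segment is similar in the 4 libraries (8.70 to 11.5 RPKM), and the other 9 factors together add 14.6 and 2.12 RPKM in Kcnh2-/- and 45.8 and 11.8 RPKM in WT.

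Read as a set, 9 of the 10 factors were lower on average in Kcnh2-/-, against 10436 of the 20201 genes above 0 in any library. The median log2 difference of the factors was -0.67, beside -0.01 over those genes. The 5 factors tested had a median of -1.24, beside 0.01 over all genes tested. The median over the 10 was -0.87 within replicate 1 and -0.30 within replicate 2. It was -0.21 without WT replicate 1, -0.36 without Kcnh2-/- replicate 2, -0.88 without Kcnh2-/- replicate 1 and -1.24 without WT replicate 2. In these runs, 7, 8, 9 and 9 of the 10 were lower. Groups did not overlap with Kcnh2-/- lower for 3 factors (Mixl1, Lhx1 and Hand1), against 14.4% of those genes, and with Kcnh2-/- higher for Eomes, against 14.1%. Kcnh2-/- was lower within both replicate numbers for 7 factors (T, Mixl1, Gsc, Lhx1, Mesp1, Hand1 and Foxf1), against 25.8% of those genes, and higher for Eomes, against 25.2%. Replicate 2 was lower than replicate 1 in both genotypes for 8 factors, against 25.8% of those genes. The factors were chosen with earlier results of these libraries known, so these counts are a description.

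The genes around the streak programme were read from 6 lists written with earlier results of these data known, and limma called 0 of the 38 list entries tested, with no adjusted p under 0.980 and 2 at an unadjusted p under 0.05 (Fn1 and Gata1). Among genes of the node and axial mesendoderm, 12 of 14 were found and 8 tested. Their median log2 difference was -0.90, and 5 of the 12 were lower in Kcnh2-/- without overlap, against 14.4% of genes above 0 in any library. Cer1, a secreted Nodal and Wnt antagonist, was at 21.4 and 0.144 RPKM in Kcnh2-/-, and at 52.2 and 28.8 RPKM in WT. Foxh1, the SMAD partner through which Nodal acts on the streak genes, was at 16.4 and 23.5 RPKM in Kcnh2-/- and 22.0 and 23.8 RPKM in WT. Foxa2, the forkhead factor of axial mesendoderm, was at 8.37 and 0.231 RPKM in Kcnh2-/- and 38.3 and 6.18 RPKM in WT. Cer1 and Foxa2 were lowest in Kcnh2-/- replicate 2 and highest in WT replicate 1, whereas Foxh1 was close to level. Cxcr4, a chemokine receptor of migrating endoderm and mesoderm, was at 6.71 and 0.726 RPKM in Kcnh2-/- and 58.1 and 10.0 RPKM in WT. Chrd, a BMP antagonist of the node, was at 2.12 and 0.683 RPKM in Kcnh2-/- and 3.47 and 2.81 RPKM in WT, and was chosen after its values were seen.

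Differences of the streak signals lay in both directions, with 27 of 29 found, 13 tested and a median of -0.25. The Nodal co-receptor gene Tdgf1 was at 240.3 and 409 RPKM in Kcnh2-/-, and at 41.3 and 226 RPKM in WT. Lefty1, a Nodal antagonist that Nodal switches on, was at 100.4 and 239.6 RPKM in Kcnh2-/- and 27.4 and 190.04 RPKM in WT. Gdf3, a ligand related to Nodal, was at 14.3 and 42.2 RPKM in Kcnh2-/- and 2.95 and 29.3 RPKM in WT. The Nodal ligand gene itself was at 35.0 and 87.2 RPKM in Kcnh2-/-, and at 16.1 and 44.9 RPKM in WT. In each of these 4 genes the highest library was Kcnh2-/- replicate 2, where T, Gsc and Lhx1 were lowest. Of the FGF genes in the list, Fgf4, a ligand of pluripotent cells, was at 19.4 and 39.8 RPKM in Kcnh2-/- and 5.45 and 15.3 RPKM in WT. Fgf8, the streak ligand that mesoderm needs to move away, was at 7.87 and 3.94 RPKM in Kcnh2-/- and 9.06 and 19.2 RPKM in WT. The groups did not overlap for either gene, with Fgf4 higher and Fgf8 lower in Kcnh2-/-. Both were chosen after their values were seen.

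**Figure D4:**
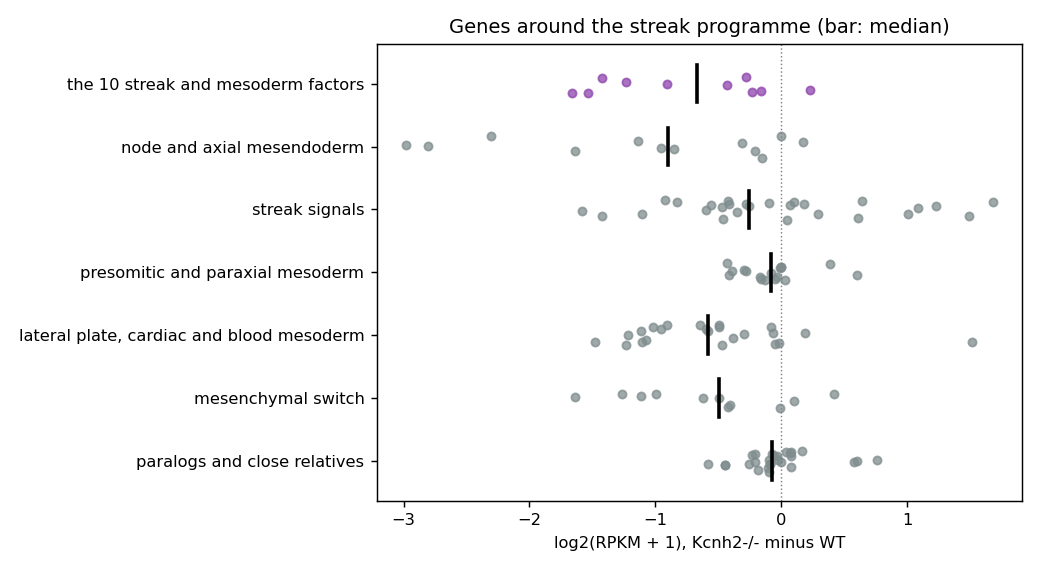
Difference in log2(RPKM + 1), Kcnh2-/- minus WT, for the 10 factors and for each gene found in the 6 lists, with a black bar at each median. The medians of the lists run from -0.90 (node and axial mesendoderm) to -0.08, and the streak signals spread on both sides of 0.

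Genes of formed mesoderm were mostly low. Of 17 presomitic and paraxial genes, 3 were tested and the median difference was -0.08. Tbx6 and Msgn1, which in the mouse commit cells to paraxial mesoderm, were at 0.320 and 0.340 RPKM in Kcnh2-/- and 0.223 and 0.553 RPKM in WT for Tbx6, and listed at 0 in all 4 libraries for Msgn1. Both were chosen after their values were seen. Of the 4 highest, Lfng, which modifies Notch receptors, was at 4.61 and 2.31 RPKM in Kcnh2-/- and 6.21 and 1.90 RPKM in WT. The Notch ligand gene Dll1 was at 0.269 and 3.24 RPKM in Kcnh2-/- and 1.49 and 1.69 RPKM in WT. Aldh1a2, which makes retinoic acid, was at 0.151 and 0.331 RPKM in Kcnh2-/- and 1.47 and 0.128 RPKM in WT. Tcf15, a helix-loop-helix factor also found in epiblast, was at 1.57 and 7.16 RPKM in Kcnh2-/- and 1.02 and 3.49 RPKM in WT. Of the lateral plate, cardiac and blood genes, 23 of 24 were found and 9 tested, with a median of -0.58, made of -1.13 within replicate 1 and -0.02 within replicate 2. Tbx3, a T-box factor also active in pluripotent cells, was at 1.53 and 9.50 RPKM in Kcnh2-/- and 3.37 and 11.1 RPKM in WT. Flt1, a VEGF receptor gene, was at 4.43 and 5.17 RPKM in Kcnh2-/- and 7.11 and 3.61 RPKM in WT, with overlapping groups. Gata1, a factor of the blood lineage, was at 2.11 and 2.59 RPKM in Kcnh2-/- and 0.153 and 0.186 RPKM in WT, and was chosen after its values were seen. It lies on chromosome X, whose genes stood higher in Kcnh2-/- when set against the autosomes. Their median log2 shift was 0.79 in replicate 1 and 0.71 in replicate 2. Gata1 itself differed by 1.43 and 1.60 within replicates 1 and 2, but in log2(RPKM + 1), which shrinks changes at its low levels. The shift of chromosome X is a plain log2 ratio, so its size cannot be set beside these values. How much of the Gata1 difference comes with the shift of chromosome X was not tested. Gata6, of endoderm and cardiac mesoderm, was at 1.05 and 0.406 RPKM in Kcnh2-/- and 6.07 and 0.804 RPKM in WT, and the mesenchymal cadherin gene Cdh11 at 1.15 and 0.0499 RPKM in Kcnh2-/- and 9.34 and 0.0172 RPKM in WT. For Gata6 and Cdh11, as for Foxc1, WT replicate 1 stood apart from the other 3 libraries.

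Genes of the switch from epithelium to mesenchyme had a median of -0.49 over 11 found, 5 of them tested, with -1.17 within replicate 1 and -0.07 within replicate 2. The epithelial adhesion gene Epcam was at 272 and 263 RPKM in Kcnh2-/- and 171 and 234 RPKM in WT, and the epithelial cadherin gene Cdh1 at 110 and 75.4 RPKM in Kcnh2-/- and 103 and 142 RPKM in WT. Fn1, the fibronectin gene, was at 48.4 and 70.8 RPKM in Kcnh2-/- and 130.3 and 126 RPKM in WT. Vim, an intermediate filament gene of mesenchyme, was at 24.8 and 1.85 RPKM in Kcnh2-/- and 153 and 3.60 RPKM in WT. Some relatives of the factors were placed in other lists and were higher, such as Tbx3 (11.1 RPKM in WT replicate 2) and Foxa2 (38.3 RPKM in WT replicate 1). Those in the separate list of close relatives gave no level above 3.08 RPKM. Of that list, 27 of 29 were found, 0 met the filter, 5 reached 1 RPKM in some library, and the median difference was -0.08. The highest of them, Lhx3, was at 3.08 and 0.671 RPKM in Kcnh2-/- and 0.338 and 0.771 RPKM in WT, and the next were the helix-loop-helix genes Tcf24, at 0.984 and 1.66 RPKM in Kcnh2-/- and 0.538 and 0.544 RPKM in WT, Tcf23, under 1 RPKM throughout, and Scx, at 1.04 and 0.291 RPKM in Kcnh2-/- and 0.454 and 0.444 RPKM in WT.

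Several of the factors are also made by other cells, so markers of those cells were summed by library. Epiblast and pluripotency markers (11 found) summed to 2610 and 3258 RPKM in Kcnh2-/- replicates 1 and 2, and to 813 and 2806 RPKM in WT replicates 1 and 2, mostly from the pluripotency factor gene Pou5f1 and the DNA methyltransferase gene Dnmt3b. WT replicate 1, with the highest T, Gsc, Lhx1, Mesp1, Foxc1 and Twist1, had the lowest sum. Kcnh2-/- replicate 2, with the lowest T, Gsc and Lhx1, had the highest sum. Single markers did not all follow the sum. Pou5f1, Nanog, Esrrb, Tdgf1 and Dppa3 were highest in Kcnh2-/- replicate 2, but Dnmt3b was highest in Kcnh2-/- replicate 1, and Sox2, Klf4 and Tfcp2l1 in WT replicate 2. Visceral endoderm, which also makes Eomes, Gsc and Lhx1, had marker sums of 48.1 and 38.5 RPKM in Kcnh2-/- and 131 and 50.6 RPKM in WT over 16 genes. Of these, 10 reached 1 RPKM in some library, led by Foxa2, Apoa2, Ttr and Lrp2, and 6, among them Hnf4a and Afp, did not. Kcnh2-/- was lower within both replicate numbers for 13 of the 16, against 25.8% of genes above 0 in any library. It was higher for 1, against 25.2%. That 1 was Apoa2, at 12.8 and 23.4 RPKM in Kcnh2-/- and 2.10 and 14.7 RPKM in WT. Definitive endoderm markers (10 genes, of which Cer1, Cxcr4, Foxa2, Sox17, Shh and Hhex are also in the node list) summed to 147 and 105 RPKM in Kcnh2-/-, and to 471 and 163 RPKM in WT. Foxa2, Sox17, Hhex and Gata6 are in the visceral endoderm list too, so the endoderm sums share genes. Cardiomyocyte markers (11 found) summed to 76.6 and 9.09 RPKM in Kcnh2-/- and 683 and 44.2 RPKM in WT, mostly from Actc1 and Tnnc1. Of these, 6 reached 1 RPKM in some library, and Nkx2-5, Myh6 and Myl2 were among those that did not. Trophoblast, which also makes Eomes and Hand1, had sums of 832 and 336 RPKM in Kcnh2-/- and 1912 and 438 RPKM in WT over 12 genes, mostly from Krt8 and Krt18. Of these, 9 reached 1 RPKM in some library. Krt7 was at 30.5 and 3.81 RPKM in Kcnh2-/- and 24.8 and 7.96 RPKM in WT, and Tfap2c at 13.9 and 20.4 RPKM in Kcnh2-/- and 2.26 and 20.9 RPKM in WT. Tpbpa and Psg29 were listed at 0 throughout, and Elf5 was at 0.472 and 0.610 RPKM in Kcnh2-/- and 0.0753 and 2.11 RPKM in WT. Fibroblasts and mesenchyme, which also make Twist1, Foxf1 and Foxc1, had sums of 37.9 and 85.0 RPKM in Kcnh2-/- and 70.7 and 61.1 RPKM in WT over 12 genes. Fbln1 alone gave 17.7 and 80.0 RPKM in Kcnh2-/- and 32.0 and 55.9 RPKM in WT. Of the list, 8 reached 1 RPKM in some library. Col3a1, Col5a1 and Postn were highest in WT replicate 1, at 9.41, 12.5 and 6.49 RPKM, where Foxc1 and Twist1 were highest too, and Col1a1 and Dcn were highest in Kcnh2-/- replicate 1, at 1.40 and 1.42 RPKM. Neural crest markers (8 found) summed to 8.55 and 8.79 RPKM in Kcnh2-/- and 29.1 and 10.7 RPKM in WT, and neural plate markers (8 found) stayed at 2.51 RPKM or less. Germ cell markers (9 found) summed to 258 and 536 RPKM in Kcnh2-/- and 47.2 and 257 RPKM in WT, mostly from Dppa3 and Ddx4. Dppa3 is also in the epiblast list and Tfap2c in the trophoblast list. Unlike the sum, Prdm1 and Prdm14 were lower in Kcnh2-/- within both replicate numbers. The part of these cells in the levels of the factors was not tested.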

How the data were processed

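Per the labels' protocols, ribosomal RNA was removed from total RNA, and stranded libraries were read as pairs of 100 bp on an Illumina HiSeq. The authors deposited 1 table of RPKM per library. TopHat2 2.0.13, Cufflinks 2.2.1 and rn6 are named in the submitters' processing notes, and the annotation and the strand setting of counting are not given in the sources used here. Coordinates are rn6, as deposited. The RPKM sums differ by replicate number, from 8.93e+06 to 1.09e+08, protein-coding genes taking 0.538% to 9.69%. The labels name no batch, so differences within each number are given.

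The genotypes were compared by limma 3.58.1 under R 4.3.3 (eBayes with trend, two-sided, no replicate term) on log2(RPKM + 1), which understates changes of low genes. The fit was tested on simulated data, where it made no false calls but called only genes with changes larger than those of the factors. The fit with a replicate term called more, false calls among them. The changed genes had mean levels above those of every factor but Eomes, and the simulated replicate effect was the same in both genotypes. Plots used Python 3.11.15 and matplotlib 3.10.9. Protein-coding genes (18645 of 32753) were matched by symbol in RefSeq (GRCr8). Lists leave out symbols with several rows. Alternatives covered pseudocount, filter, scaling, variance trend, replicate block, gene set and each library left out. Named with values are the factors, Kcnh2, Y-linked checks, and from each of the 6 lists of related genes the 4 of highest mean; others in those lists and all markers named singly were chosen after their values were seen. The factors and lists were chosen with earlier results of these data known.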

Additional observations from a re-analysis of the deposited data

How the results depend on the processing

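Of the factors that met the filter in each of the 13 alternatives to the test (1 at a filter of 5 RPKM, 10 with no filter and 4 or 5 otherwise), limma called 0, and with the replicate number as a block (a number that the labels do not tie to a shared culture; r = 0.38 across 12355 genes between the replicate differences of the 2 genotypes) T, Gsc and Lhx1 had unadjusted p under 0.05 and the smallest adjusted p was 0.264. With that block and protein-coding genes only, T, Gsc and Lhx1 were again at an unadjusted limma p under 0.05, and the smallest adjusted p was 0.0814. With protein-coding genes only and no block, Lhx1 had an unadjusted limma p of 0.0433 and an adjusted p of 0.969. The directions of T, Eomes, Mixl1, Gsc, Lhx1, Mesp1, Hand1 and Foxf1 held with the other pseudocount, both other scalings and each library left out, though Mesp1 and Foxf1 came to -0.02 without WT replicate 1. The other settings cannot change a difference of means. With each library left out Twist1 ran from -1.43 to 0.97, turning to 0.35 without Kcnh2-/- replicate 2 and to 0.97 without WT replicate 1, where it was below the filter, and Foxc1 to 0.18 without WT replicate 1. With a pseudocount of 0.1 the median over the factors was -1.53, and with quantile normalization -0.64. Over all genes, 4 were called higher and 10 lower in Kcnh2-/-. The count called higher was 1 with median-of-ratios scaling, 7 with a pseudocount of 0.1, 8 with quantile normalization and 14 with the replicate block. No filter gave 0 higher and 1 lower, no variance trend 0 and 3, protein-coding genes 0 and 3, and protein-coding genes with the replicate block 57 and 25. Leaving out each library in turn gave 0 higher every time and 0 to 15 lower. The cause of these changes was not tested. The count of factors above the level in all 4 libraries was 1 at 1 RPKM, 2 at 0.5 RPKM and 7 at 0.1 RPKM, and 1 to 4 with each library left out, 4 of them without Kcnh2-/- replicate 2. Leaving out each library was chosen after seeing the data for the number of factors that were lower, which ran from 7 to 9.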
